A study of Mus musculus with 2 samples.

Results

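The Notch pathway and the Hes/Hey repressors were followed here as 10 genes in mouse fibroblasts before and after serum. The genes were taken by name, from the ligand Jag1, the receptors Notch1 and Notch2, the feedback inhibitor Nrarp and the basic helix-loop-helix repressors Hes1, Hes5, Hes6, Hey1, Hey2 and Heyl. They are 10 of the 28312 genes and 12 of the 35777 gene probes on the array, with 2 probes each for Notch1 and Notch2 and 1 probe for each of the other genes. The cells were immortalized embryonic fibroblasts (MEF) of mixed C57BL/6 x B6:129 Ola background that carry THOC5 (flox/flox) alleles and Cre recombinase fused to a tamoxifen-responsive estrogen receptor from the Rosa26 locus. THOC5 is a subunit of the TREX complex, which couples transcription with mRNA export. All 4 RNA samples came from this one cell line, control cells without tamoxifen ("wildtype" in the labels) and cells after 2 d of tamoxifen ("THOC5 knockdown" in the labels, THOC5-depleted here), each starved of serum and then either left unstimulated or given fetal calf serum for 1 h. The controls thus carry the floxed alleles and the Cre too but did not receive tamoxifen, so that tamoxifen and loss of THOC5 cannot be told apart. The methods on cell culture divide this time into exposure to tamoxifen and growth medium. Each condition was hybridized to 1 dual-color array, with unstimulated RNA in Cy3 and serum-stimulated RNA in Cy5. There was no replicate and no array with exchanged dyes, so no test, standard error or p-value is given, and serum and dye cannot be told apart. The spread between spots of one probe is the only error available, and it is technical.

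In Notch signalling, a ligand such as Jag1 on one cell binds a Notch receptor on its neighbour, the receptor is cleaved, and its intracellular domain enters the nucleus, where it joins the DNA-binding protein RBPJ. The main targets are the Hes and Hey genes, whose products repress transcription, including that of their own genes. Hes1 is also known to be induced by serum in cultured fibroblasts, where its mRNA and protein are short-lived and oscillate.

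On each array, 43020 non-control spots were read, of which 239 and 234 were outliers by the scanner software and none was a member's. Between 62.1% and 64.4% of spots were well above background in each channel. The Thoc5 probe read 4808 in unstimulated control cells against 545.6 after depletion, and its level after scaling between arrays was 7.09-fold lower in the unstimulated depleted cells. All 8 fibroblast markers were well above background in all 4 channels, with signals summed over the list of 262812 to 355398, although 2 of them were past 2-fold lower in unstimulated THOC5-depleted cells, Pdgfra by 2.42-fold and Col3a1 by 2.18-fold. Some markers of other cell types were also well above background in all 4 channels, 3 of 4 endothelial (Pecam1, Cdh5 and Kdr), 2 of 4 epithelial (Krt8 and Krt18), 1 of 4 neural (Tubb3), 2 of 4 muscle (Myod1 and Acta2) and 2 of 4 blood markers (Itgam and Cd3e). Tek, Cdh1, Sox2, Gfap and Myog were not well above background in any channel. Epcam was at least 2.57-fold lower, Cd68 at least 2.35-fold higher and Ptprc at least 1.44-fold higher in unstimulated depleted cells. The other epithelial and blood markers with a measured value differed by less than 2-fold. In stimulated depleted cells Cdh5 was 2.17-fold lower (Pecam1 and Kdr both at -0.05 on the log2 scale), Epcam at least 2.45-fold lower and Cd68 at least 2.06-fold higher, and in control cells Pdgfra was 2.09-fold lower after serum. The part of these marker differences in the results was not tested.

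Of the members, 6 genes (Hes1, Hes6, Hey1, Jag1, Notch1 and Notch2) were well above background in all 4 channels, 1 gene (Hes5) only in Cy3 on both arrays, and 3 genes (Hey2, Heyl and Nrarp) in no channel. Serum ratios are Cy5 over Cy3 processed signals on one array, and a gene was called when the ratio was 2-fold or more up or down. In such bulk RNA, fewer cells that express a gene and less RNA per cell cannot be told apart. In control cells, 1 of the 7 genes with a usable ratio was called up (Hes1) and 1 down (Hes5). Over all 18817 genes with a usable ratio on that array, 2.64% were called up and 1.74% down. In THOC5-depleted cells Hes1 and Hes5 were called again, 1 up and 1 down of 7, and 0.942% and 0.377% of 18569 genes were called up and down. Where both signals were measured, the median log2 serum ratio of the members was 0.13 in control and 0.21 in depleted cells (6 genes), beside -0.02 and -0.01 over all genes.

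**Figure D1:**
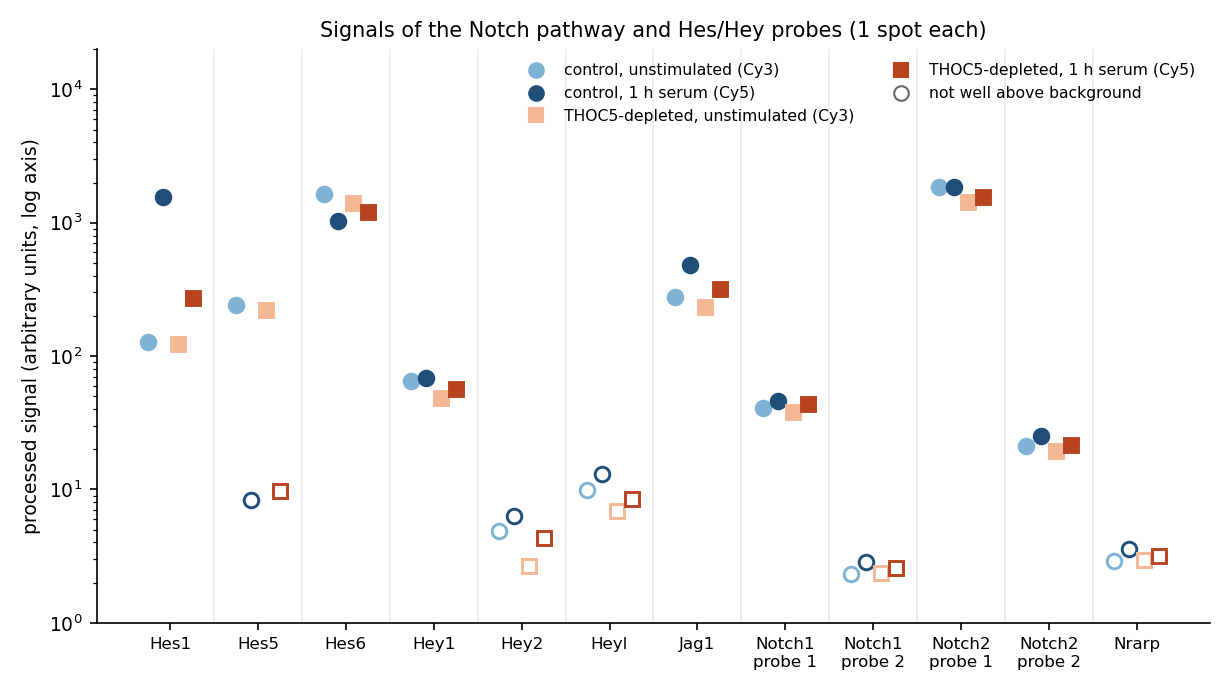
Processed signals (log axis, arbitrary units) of the 12 probes in the 4 channels, with filled symbols for channels well above background and open symbols for the others. Hes1 read 128.5 before and 1553 after serum in control cells but 123.8 and 271.2 in THOC5-depleted cells, and Hes5 was measurable only in the unstimulated samples; levels of different probes cannot be compared.

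Jag1, a membrane ligand that activates Notch receptors on neighbouring cells, was measured by a probe at chr2:136907433-136907492 (mm9, minus strand). Probe positions are those of the array files, and whether they lie in coding exons or UTRs was not analysed here. Its signals in control cells were 277.8 unstimulated and 485.0 after serum, and in THOC5-depleted cells 232.1 and 317.4. Serum-stimulated samples were thus the higher ones on both arrays, by 1.75-fold (log2 0.80) in control and 1.37-fold (log2 0.45) in depleted cells. Both ratios lie below the 2-fold limit. They exceed the spot SD, which is the median over probes of like brightness of the SD of log2 ratios from spot to spot, 0.029 for signals of 300 to 1000 on the control array and 0.056 for signals of 100 to 300 on the depleted array. The serum ratio was 1.28-fold larger in control cells.

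Notch1 and Notch2 are the receptors, single-pass membrane proteins that are cut on ligand binding. The brighter Notch1 probe (chr2:26319440-26319499, mm9, minus strand) gave signals of 41.1 and 46.4 before and after serum in control cells and 38.0 and 43.7 in THOC5-depleted cells. These correspond to log2 serum ratios of 0.17 and 0.20, close to the spot SD of 0.115 and 0.110 for signals of 30 to 100, and the 4 samples lay near each other. A second Notch1 probe (chr2:26314630-26314689) was not well above background in any channel. For Notch2, the brighter probe (chr3:97953914-97953973, mm9, plus strand) read 1865 and 1859 in control cells and 1443 and 1560 in THOC5-depleted cells, with a ratio of 1.00 (log2 -0.00483) in control and 1.08 (log2 0.11) in depleted cells. The second Notch2 probe (chr3:97951233-97951292) was much dimmer, at 21.2 and 25.1 in control and 19.3 and 21.7 in depleted cells, and its log2 ratios of 0.24 and 0.17 had the opposite order between arrays. The spot SD at that brightness was 0.172 and 0.167. Neither receptor passed 2-fold by any probe.

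Hes1, a repressor that is both a Notch target and a serum-responsive gene, had the largest serum ratio among the members on both arrays. Its probe lies at chr16:30067820-30067879 (mm9, plus strand). The Hes1 signal was 128.5 in unstimulated and 1553 in serum-stimulated control cells, and 123.8 in unstimulated and 271.2 in stimulated THOC5-depleted cells. Only the stimulated control sample stood far above the other 3. Hes1 was 12.1-fold higher after serum (log2 3.59) in control cells and 2.19-fold higher (log2 1.13) in depleted cells, so that its serum ratio was 5.52-fold smaller in the depleted cells (log2 difference 2.46). The spot SD of the log2 ratio for probes of this brightness was 0.029 on the control array and 0.056 on the depleted array. With another background correction and dye normalization, normexp and loess, the ratio in depleted cells was 0.94 on the log2 scale, under the 2-fold limit.

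Among genes measured in both channels of an array, 19 of 17786 had a higher serum ratio than Hes1 in control cells and 117 of 17849 in THOC5-depleted cells. Among the 17231 genes measured in all 4 channels, 6 had a larger difference between the 2 arrays. For the 38 genes with a serum ratio of 8 or more in control cells, a choice that by itself favours a larger ratio on that array, the log2 difference had a median of 1.44 and ran from -0.84 to 3.20, and 1 of them lay above Hes1. Across all 17231 genes, 1.16% had a serum ratio that was 2-fold or more larger in control cells and 0.818% one that was 2-fold or more smaller, and of the 6 members only Hes1 was called. The log2 ratios of the depleted array were less spread than those of the control array. After they were scaled to the control array's spread, by a factor of 1.39, the Hes1 difference was 2.02 (4.06-fold). The same scaling moved the difference of Jag1 from 0.35 to 0.18 and that of Hes6 from -0.42 to -0.33. Those of Hey1, Notch1 and Notch2 grew in size, to -0.23, -0.10 and -0.16.

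**Figure D2:**
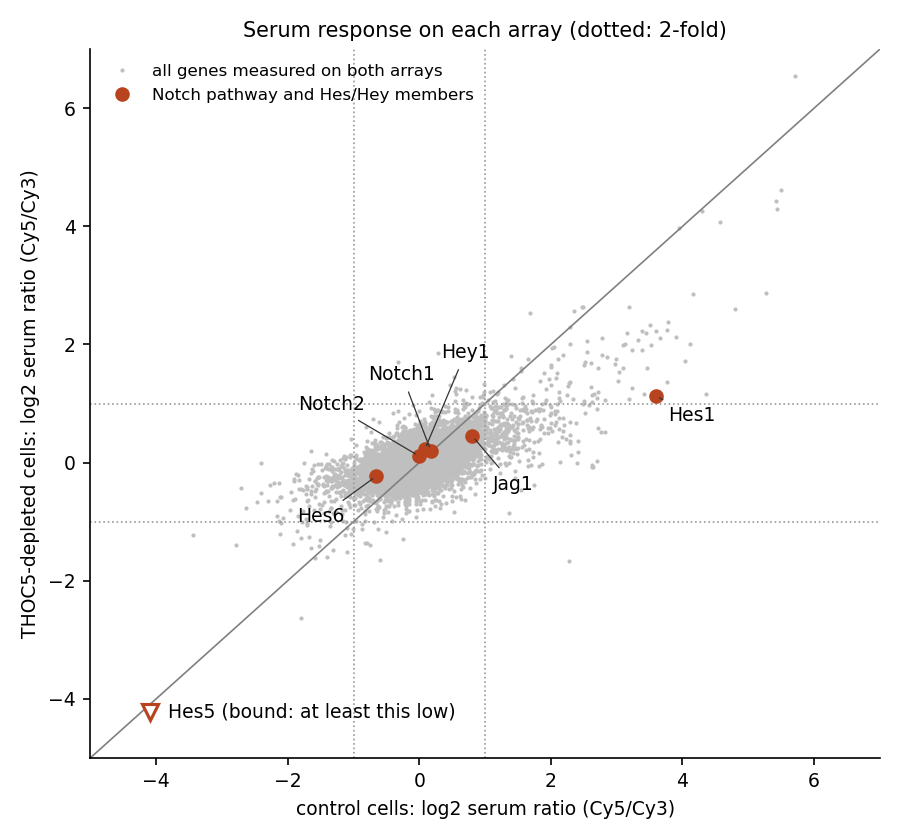
Log2 serum ratio of each gene in control cells (x axis) and in THOC5-depleted cells (y axis), with all 17231 genes measured in all 4 channels in grey and the members in red; the diagonal marks equal ratios and the dotted lines 2-fold. Hes1 lies at 3.59 and 1.13, well below the diagonal, 5 members lie within the 2-fold lines on both arrays, and Hes5 is drawn at its bounds of -4.10 and -4.22.

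Hes5, a repressor known as a direct Notch target in the nervous system, was lower in the serum-stimulated (Cy5) than in the unstimulated (Cy3) sample on both arrays. Its probe lies at chr4:154336347-154336406 (mm9, plus strand). The signal was 240.7 in unstimulated control cells and 222.7 in unstimulated THOC5-depleted cells, well above background on both arrays. After serum it was 8.31 and 9.71, not well above background on either array. Since the serum-stimulated level is only known to lie under the detection limit of the Cy5 channel (the lowest Cy5 signal that passed as well above background), each ratio is a bound. Hes5 was at least 17.2-fold lower after serum in control cells and at least 18.6-fold lower in depleted cells. No comparison between these bounds was made.

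The same pattern was present before dye normalization. The mean spot signal minus local background on the control array was 339.1 for Cy3 against 32.5 for Cy5, and on the THOC5-depleted array 319.8 against 31.1. Both dyes read the same spot of 66 pixels on each array, and neither spot was an outlier. With both signals raised to a floor of 50, the bound was 4.81-fold in control and 4.45-fold in depleted cells, and with normexp and loess it was -2.49 and -2.46 on the log2 scale.

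On both arrays, 145 genes, Hes5 included, were well above background only in Cy3 and 61 genes only in Cy5. Of these 145 genes, Hes5 alone had a Cy3 signal above 100 on either array. Without exchanged dyes, a loss of Hes5 mRNA cannot be told apart from a difference between the dyes at this probe.

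Promoter windows from 250 bases before to 50 bases after the transcription start (RefSeq, GRCm38.p6) were matched for 7 of the 10 genes (all but Hes1, Hey1 and Heyl), with 2 starts for Hes6. Hes5 and Hey2 are shown because they alone among the members with a window held the RBPJ core letters GTGGGAA, the letters that RBPJ prefers, and each held them on both strands. The sequences run 5′ to 3′ on the gene's strand from 250 bases before the start to 10 bases from the start base on, at chr4:154960673-154960932 (plus strand) for Hes5 and chr10:30842774-30843033 (minus strand) for Hey2. Capitals mark GTGGGAA, its reverse complement and, in Hes5, a CArG box, the kind of site bound by serum response factor.
Hes5: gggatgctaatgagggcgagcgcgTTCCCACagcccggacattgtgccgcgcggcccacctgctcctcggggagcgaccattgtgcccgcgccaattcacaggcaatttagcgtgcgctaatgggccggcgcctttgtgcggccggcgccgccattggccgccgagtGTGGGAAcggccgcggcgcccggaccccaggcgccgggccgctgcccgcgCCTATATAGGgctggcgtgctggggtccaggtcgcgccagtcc
Hey2: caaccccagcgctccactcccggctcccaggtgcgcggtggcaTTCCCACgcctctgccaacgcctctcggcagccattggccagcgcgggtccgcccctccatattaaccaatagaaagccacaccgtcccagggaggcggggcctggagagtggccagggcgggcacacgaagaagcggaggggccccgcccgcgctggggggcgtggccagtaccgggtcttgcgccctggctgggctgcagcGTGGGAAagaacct

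The GTGGGAA letters were found on either strand in 6.38% of all 32851 windows and on both strands in 33 windows. In Hes5 they lie at -226 to -220 on the other strand and at -83 to -77 on the gene's own strand, 136 bases apart, where 0 is the start base. In Hey2 they lie at -207 to -201 on the other strand and at -4 to 2 on its own strand. The shorter core TGGGAA, which is part of GTGGGAA, occurred in 25.6% of windows and at no further place in a member. The CArG box of Hes5 lies at -33 to -24, and such a box was found in 1.63% of windows. The E-box CACGTG, bound by many basic helix-loop-helix proteins, was found in the Nrarp window at -108 to -103 and in 7.15% of windows. The variant CACGCG, which Hes and Hey proteins also bind, was found at 2 places in the Jag1 window and at 1 place in that of Notch2, against 9.27% of windows overall. The N-box CACNAG was found in 1 of the 2 Hes6 windows and in those of Notch1, Notch2 and Nrarp (42.5% of windows), and TATAAA in the same Hes6 window (13.6%). All motifs were searched on both strands, and a match describes letters only.

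**Figure D3:**
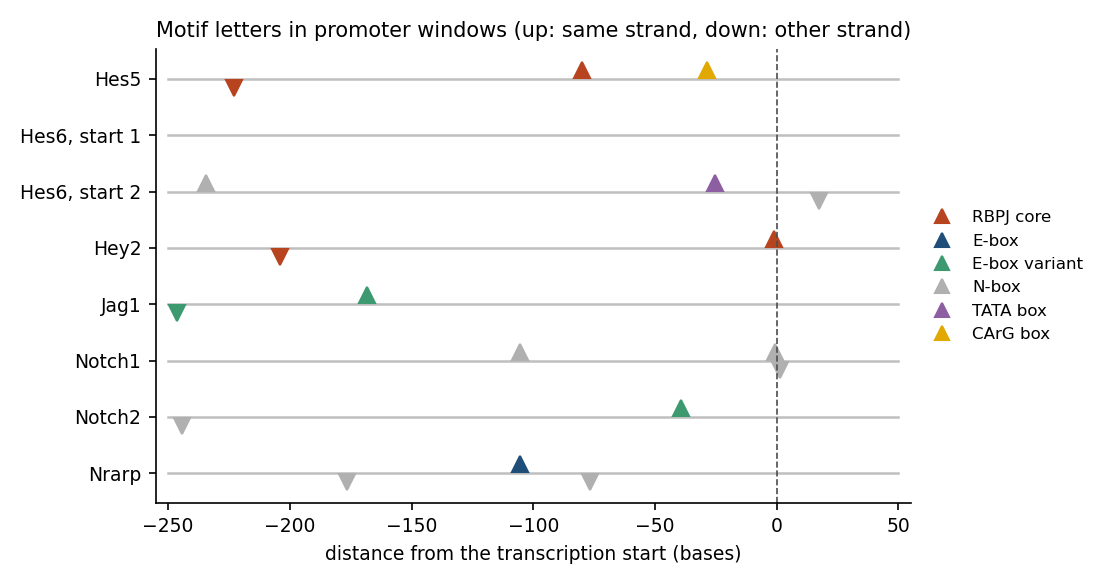
Motif letters in the promoter windows of 7 members, plotted by distance from the transcription start in bases (x axis), with triangles pointing up for the gene's strand and down for the other strand. Hes5 and Hey2 each carry the RBPJ core on both strands, and Hes5 carries a CArG box at -33 to -24.

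Hes6, a family member known to oppose Hes1, was measured at chr1:93308264-93308323 (mm9, minus strand) and had serum ratios of the opposite sign to those of Hes1. Its signals were 1631 before and 1036 after serum in control cells and 1403 and 1195 in THOC5-depleted cells. The stimulated sample was the lower one on both arrays, by 1.57-fold (log2 -0.65) in control and 1.17-fold (log2 -0.23) in depleted cells. These ratios did not reach 2-fold but were larger than the spot SD at that brightness, 0.024 and 0.022. The 2 serum ratios differed by 1.34-fold.

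Hey1, a repressor with a known role in heart and vessel development, was measured at chr3:8663432-8663491 (mm9, minus strand). Signals of 65.2 and 69.1 (control) and of 48.7 and 56.9 (THOC5-depleted) gave log2 serum ratios of 0.08 and 0.22. The first is under the spot SD of 0.115 for signals of 30 to 100. Its relatives Hey2 (2.67 to 6.31) and Heyl (6.85 to 13.1) were not well above background in any of the 4 channels. The same held for Nrarp, a Notch target whose product limits the activity of the receptor's intracellular domain (2.90 to 3.60). No ratio is given for these 3 genes.

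To compare the conditions directly, the levels of each dye were set across the arrays by Aquantile, which gives the arrays one distribution of brightness; such values are less precise than ratios within an array. In unstimulated cells, 0 of 7 members differed 2-fold or more, and 2.23% and 2.07% of 19096 genes were at least 2-fold higher and lower in THOC5-depleted cells. The members' log2 differences (depleted over control) ran from -0.27 for Hey1 to 0.18 for Hes1, with 0.04 for Hes5 and for Notch1, 0.08 for Hes6, -0.02 for Jag1 and -0.08 for Notch2. The unstimulated Cy3 levels of Hes1 and Hes5 were thus similar in both conditions. For Hes5 the limit on the dyes at its probe holds here too. In stimulated cells, 1 of 6 members was called, Hes1, at 4.86-fold lower in depleted cells (log2 -2.28), beside 2.46% of 18706 genes higher and 2.27% lower. Only 12 of 17471 genes lay lower than Hes1. The next members were Hes6 at 0.50 and Jag1 at -0.37, while Hey1, Notch1 and Notch2 lay between -0.12 and 0.06.

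**Figure D4:**
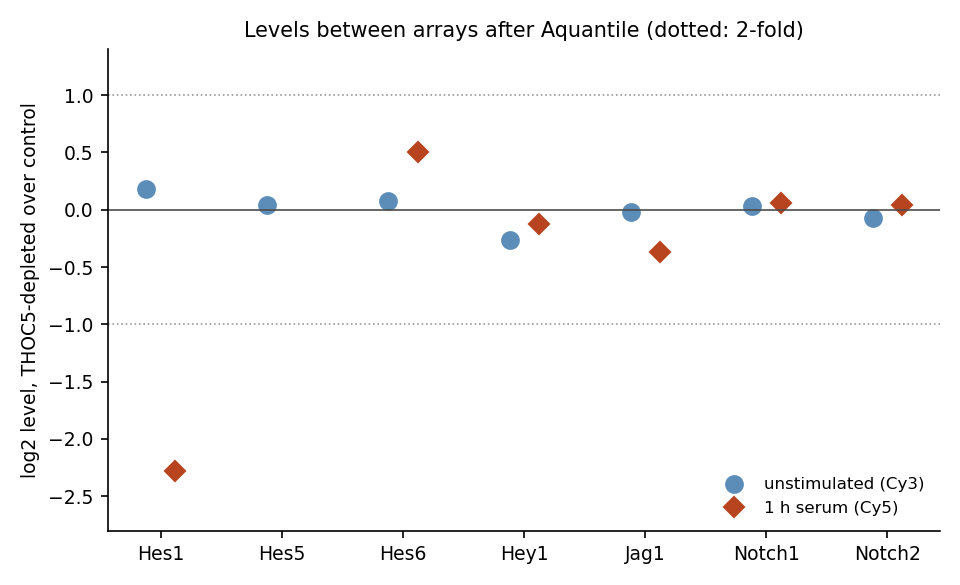
Log2 level in THOC5-depleted over control cells for the 7 members above background in Cy3, with circles for unstimulated and diamonds for serum-stimulated cells and dotted lines at 2-fold. All unstimulated values lie between -0.27 and 0.18, and only the stimulated Hes1 value, at -2.28, is beyond 2-fold.

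Within each gene the 4 scaled levels can be put in order. For Hes1 the order from low to high was control unstimulated (118.2), depleted unstimulated (134.1), depleted stimulated (293.7) and control stimulated (1428). For Jag1 it was depleted unstimulated (252.7), control unstimulated (256.1), depleted stimulated (345.5) and control stimulated (447.2), of which the first 2 differ by less than the spot SD. Hes6 was lowest in stimulated control cells (938.9), followed by stimulated depleted (1329), unstimulated control (1478) and unstimulated depleted cells (1560).

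The genes whose 4 centred levels lay nearest to those of Hes1, among 17230 other genes, were Cul9 (Euclidean distance 0.33, log2 units), Il11 (0.46), Lce1f (0.53), Tmem88 (0.57) and Hbegf (0.68). Their serum responses ran from 8.24- to 13.6-fold in control cells and from 2.11- to 3.76-fold in THOC5-depleted cells. Only 2 genes lay within 0.5 of Hes1. Within the same distance of Jag1 and Hes6 lay 2010 and 4696 genes. Since the distance was not scaled to the size of a gene's changes, these counts depend on that size and do not compare shapes of profiles. Nearest to Jag1 were Wsb1, Foxn2, Olfr629, Irs2 and Rem2, and nearest to Hes6 were Zfp947, Hoxc9, Gm10778, Zfp788 and Gm9595. These likenesses rest on 4 channels of 2 arrays.

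The rest of the pathway was read from a list of 58 names in 8 roles, of which 57 were found on the array, 53 genes were well above background in all 4 channels and 3 (Dtx1, Hes3 and Helt) in none. In control cells 1 of 54 genes with a usable ratio was called up and 0 down, and in depleted cells 1 of 53 up and 0 down, beside 2.64% up and 1.74% down of all genes in control and 0.942% and 0.377% in depleted cells. At these shares, single calls in the list are no result about the pathway as a whole. Both times the gene was Bhlhe40, a repressor related to the Hes family that is known to respond to serum and to the circadian clock. Its signal before and after serum was 1218 and 7880 in control and 1413 and 3027 in THOC5-depleted cells. The serum ratio was 6.47-fold (log2 2.69) in control and 2.14-fold (log2 1.10) in depleted cells, 3.02-fold apart. After the log ratios were scaled to one spread, the Bhlhe40 ratios were 2.24-fold apart (log2 1.16). Bhlhe40 was the only one of 53 genes whose serum ratio differed 2-fold between the arrays (1.16% and 0.818% of all genes did so in the 2 directions), and like that of Hes1 its ratio was larger in control cells. The median log2 serum ratio over the 53 genes was -0.03 in control and 0.01 in depleted cells, near those of all genes.

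Receptors, proteases and nuclear partners showed no called change after serum. The DNA-binding partner Rbpj, like Notch3 and Notch4 chosen after its values were seen, read 3970 and 4173 in control and 3085 and 2801 in depleted cells. The 9 proteases, which include the ADAM enzymes and γ-secretase subunits that cut the receptor, had log2 serum ratios of -0.33 to 0.42 in control and -0.31 to 0.37 in depleted cells. The 7 genes of the nuclear complex had ratios of -0.30 to 0.09 and -0.27 to 0.29. The receptors Notch3 and Notch4 had log2 ratios of -0.48 and -0.74 in control but 0.12 and 0.06 in depleted cells, all within 2-fold.

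Lfng encodes a sugar transferase that modifies Notch receptors and is itself a Notch target. It read 80.8 and 161.1 in control and 49.1 and 57.4 in depleted cells, a serum ratio of 1.99, just under the limit, in control and of 1.17 in depleted cells. In stimulated cells, Lfng was 1.33 lower on the log2 scale in THOC5-depleted cells and Bhlhe40 1.06 lower. With normexp and loess the Lfng value was -0.97, under the 2-fold limit. The ligand Dll4 was higher in depleted cells, by 2.02-fold (log2 1.02) in unstimulated and 2.62-fold (log2 1.39) in stimulated cells, from signals of 133.5 and 112.4 in control and 234.3 and 255.7 in depleted cells. The unstimulated value was 0.86 with normexp and loess, under the limit. With the main processing, these were the only pathway genes called between arrays, 1 of 54 higher and 0 lower in unstimulated cells, 1 of 53 higher and 2 lower in stimulated cells. Those counts lie near the shares of all genes, 2.23% higher and 2.07% lower in unstimulated and 2.46% and 2.27% in stimulated cells.

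**Figure D5:**
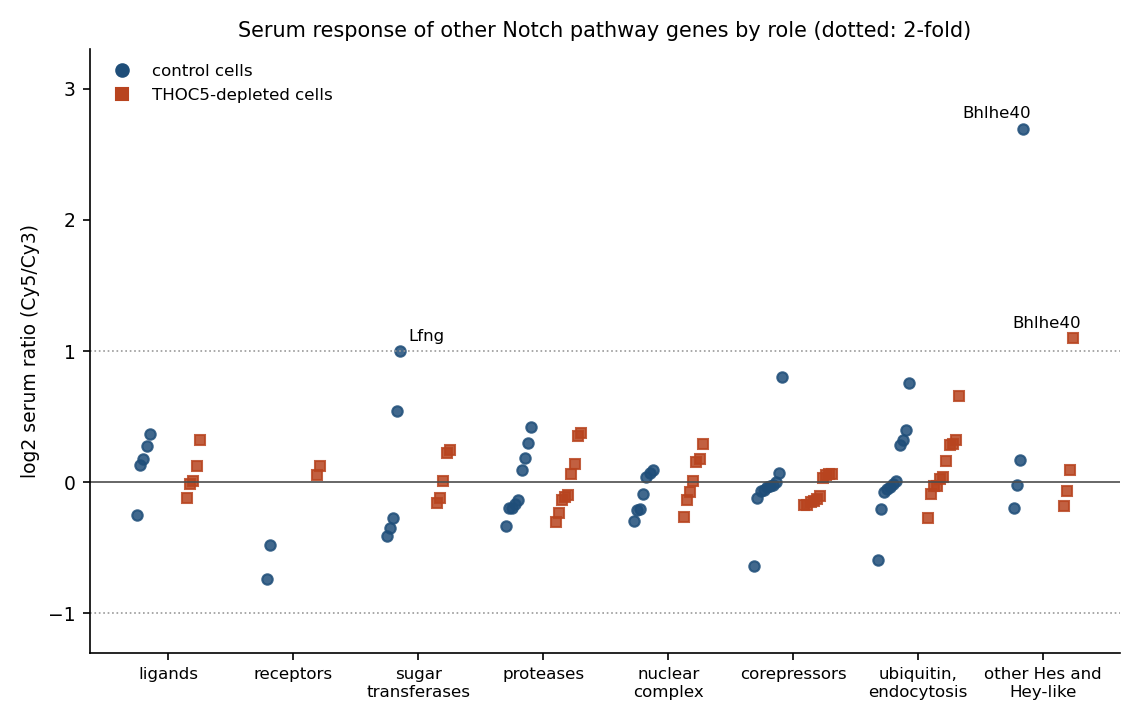
Log2 serum ratio (y axis) of each pathway gene with measured signals, grouped by role (x axis), with circles for control and squares for THOC5-depleted cells and dotted lines at 2-fold. Bhlhe40 alone lies beyond 2-fold, at 2.69 and 1.10, and Lfng reaches 1.00 in control cells.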

How the data were processed

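RNA of control and THOC5-depleted fibroblasts was hybridized to 2 dual-color Agilent arrays on one slide (Cy3 unstimulated, Cy5 after 1 h of serum). The authors deposited scanner output (Agilent Feature Extraction 10.7.3.1, build mm9). According to the headers of these deposited files, background was subtracted from the spot intensities and the dyes were normalized (linear, then LOWESS) within each array, and the log ratio is the log10 of Cy5 over Cy3. The deposited value table equalled the size of that log10 ratio within 0.01 for 100% of 44397 features, once signals were raised to floors of 10.6 and 8.62. It holds 0 negative values and has medians of 0.0279 and 0.0222, is not centred and lacks the sign, which was taken from the scanner ratio for its use as an alternative. 0 columns were not mapped to a sample.

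Outlier spots were left out, spots of a probe were averaged on the log2 scale, and the brightest probe of a gene was used. Symbols came from the array files, updated by accession for 26412 of 35777 named probes. A ratio with 1 channel not well above background is a bound against the lowest signal well above background in that channel or the probe's own signal, whichever is higher. Levels between arrays used limma 3.58.1 (Aquantile) in R 4.3.3. Spot precision came from gene probes with at least 8 usable spots. Python 3.11.15, numpy 2.4.6, pandas 2.3.3 and matplotlib 3.10.9 did the rest. The serum calls of the control array were tested on simulated data, and the other comparisons were not.

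The members, gene lists and rules were chosen with earlier results of these data known. Named were all members, pathway genes past 2-fold (at most 3 each way per comparison), the 5 genes nearest to Hes1, Jag1 and Hes6, Thoc5 and the cell type markers. Outside this rule, Rbpj, Notch3 and Notch4 were named, with the pathway genes well above background in no channel. So were the genes that only an alternative at the 2-fold limit called. Pathway genes called only at 1.5-fold were counted without names. The alternatives were normexp (offset 50) with loess, no dye normalization, the value table, the mean over probes, outlier spots kept, a floor of 50, a limit of 1.5-fold, scaling of the log ratios to one spread and, between arrays, 75th percentile scaling. The arrays' number limits the precision. Protein sequences were not used here.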

Additional observations from a re-analysis of the deposited data

Results flagged for a closer look

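The Notch2 serum ratio had opposite signs in the 2 conditions, -0.00483 in control and 0.11 in THOC5-depleted cells on the log2 scale, a difference of -0.1173 that was not tested. The control value is smaller than the spot SD of 0.024 at that brightness, and with the mean over both probes the ratios were 0.12 and 0.14, both above 0. The second Notch2 probe was higher after serum on both arrays, and its difference was 0.08.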

How the results depend on the processing

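No value past 2-fold of a member, or of Bhlhe40, Dll4 or Lfng, changed sign under the alternatives run. The log2 serum ratio of Hes1 ran from 3.21 to 3.59 in control and from 0.94 to 1.13 in THOC5-depleted cells, and its difference from 2.02 to 2.46. The Hes5 bound ran from -4.10 to -2.27 in control and from -4.22 to -2.16 in depleted cells, smallest with the floor of 50, which by construction limits a fall to a dim signal. The value table, with its own floors, gives -4.50 and -4.52, which are no bounds against the lowest signal well above background. At 1.5-fold, 4 members were called after serum in control cells (Hes1 and Jag1 up, Hes5 and Hes6 down), 7 pathway genes in control and 2 in depleted cells, 4 in unstimulated and 4 in stimulated depleted over control cells. Of all genes, 6.72% were up and 5.84% down after serum in control cells at that limit, 3.46% and 1.57% in depleted cells, 6.23% and 6.24% between unstimulated and 7.25% and 6.53% between stimulated cells. With normexp and loess, 1 member (Hes5) was called after serum in depleted cells, 0 pathway genes were called in unstimulated cells (Dll4 at 0.86), and Lfng was no longer called in stimulated cells (-0.97). With the mean over probes, 2 pathway genes were called after serum in control cells (Dll3 beside Bhlhe40) and 2 in unstimulated cells (Maml2, lower, beside Dll4), and Maml2 was also called lower in stimulated cells. With 75th percentile scaling, Notch4 was also called, higher, in stimulated cells. The offset of 50 in normexp by construction draws the ratios of dim signals together. How far this accounts for the changes under normexp was not tested, nor was the cause of those under the mean over probes. Without dye normalization the median log2 ratio was 0.83 in control and 0.74 in depleted cells, and values were taken relative to it. No paired analysis was possible because each condition had 1 array. Leaving out a replicate was likewise not possible. Signal over background limits Hes5 after serum to a bound and leaves Hey2, Heyl and Nrarp without a ratio.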
